A study of Homo sapiens with 12 samples.

Results

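The mitochondrial solute carriers, the SLC25 family, were followed in MIAPaCa2, an established human pancreatic ductal adenocarcinoma (PDAC) cell line, by RNA-seq. Members were all gene symbols of the form SLC25A plus a number, except the aspartate/glutamate carriers SLC25A12 and SLC25A13 and the oxoglutarate carrier SLC25A11, which gave 45 of 26475 symbols. Of these, 40 passed the filter on low counts and were tested among 14582 genes. The study compared 4 groups of 3 libraries each: parental cells and cells resistant to oxamate, an inhibitor of the lactate dehydrogenase subunit LDHA, each with vehicle or with oxamate. The labels call the treatments untreated and LDHA inhibitor, and the populations Parental and LDHA inhibitor resistant. Resistant cells were an isolated polyclonal population of the same line, selected by continuous culture in 10 mM sodium oxamate for 4 weeks, so that each population stands for 1 derivation. The length of oxamate treatment before RNA extraction was not given for RNA-seq in the sources used here. Nothing in the labels says that the 3 libraries of a group came from separate cultures, so p-values measure only the spread between these libraries, which may be technical.

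SLC25 proteins are encoded in the nucleus, made in the cytosol and inserted mostly into the mitochondrial inner membrane by the TIM22 complex. They exchange metabolites that the membrane does not let through, among them ATP and ADP, phosphate, citrate, amino acids, nucleotides, cofactors, iron and glutathione. Oxamate blocks the conversion of pyruvate to lactate, so the traffic of metabolites between cytosol and mitochondria is one of the routes on which cells without this reaction can draw. A few members work elsewhere: SLC25A17 is a peroxisomal carrier and SLC25A46 an outer membrane protein linked to organelle dynamics. All values below are mRNA levels, and in bulk samples fewer cells with an mRNA and less mRNA per cell cannot be told apart.

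Sequencing depth lay between 46698729 and 114222169 expected counts per library, and every parental library was deeper than every resistant library. A level of 3 counts, used as the floor, corresponded to 0.0283 to 0.0581 CPM (counts scaled to a fixed library total) across the libraries, a limit that covers counting error only. The epithelial keratins KRT8, KRT18 and KRT19 and the mesenchymal VIM were abundant in all libraries and over 1.5-fold lower in resistant cells, while mean levels of the defining leukocyte and endothelial markers PTPRC and PECAM1 were at most 0.115 CPM. The epithelial adhesion genes EPCAM and CDH1 were at or below 0.0232 CPM in every group mean, and of the fibroblast collagens COL1A1 was at 1 to 1.89 CPM while COL1A2 was at 703 to 941 CPM. The nuclear-retained RNAs MALAT1 and NEAT1 differed between groups, with mean MALAT1 levels of 193, 389, 371 and 643 CPM in parental vehicle, parental oxamate, resistant vehicle and resistant oxamate samples. Replicate 3 of oxamate-treated parental cells (596 CPM MALAT1) and replicate 3 of vehicle-treated resistant cells (597 CPM) stood above the other libraries of their groups, which lay between 244 and 289 CPM. The part of this shift in the results below was not tested, and the counts without both libraries are given with each comparison. Oxamate-treated resistant libraries, at 577 to 742 CPM MALAT1, were all kept there, so leaving both out does not even out MALAT1 between the resistant groups.

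The carriers took a near-constant slice of each library, 0.354 to 0.370% of counts before TMM scaling. After that scaling, which all CPM values here carry, their total differed between the populations. Its group means were 3875 and 4042 CPM in parental cells after vehicle and oxamate, and 3334 and 3219 CPM in resistant cells. Genes were compared per kilobase of exon, with all annotated exons of a gene merged, whichever transcripts were expressed. On this scale the adenine nucleotide carriers SLC25A6 and SLC25A5, which exchange ATP for ADP, were highest, with means over the 12 libraries of 671 and 498 CPM per kb. Their ranges over the 12 libraries overlapped (605 to 759 and 385 to 619 CPM per kb). Below them came the glutathione carrier SLC25A39 (163 CPM per kb), the citrate carrier SLC25A1 (107 CPM per kb) and the phosphate carrier SLC25A3 (49.3 CPM per kb), and the 12-library ranges of these 3 did not overlap each other. Their order rests on the merged lengths of 1644, 1783 and 6856 bases. Without length SLC25A3 was the highest of these 3 in vehicle-treated parental cells, at 379 CPM against 291 for SLC25A39 and 206 for SLC25A1. The ATP-Mg/phosphate carrier SLC25A23 followed with 38.1 CPM per kb, overlapping SLC25A3, and the dicarboxylate carrier SLC25A10 with 22.9 CPM per kb. Further down the order, neighbours overlapped: SLC25A22 ran from 9.61 to 18.5, SLC25A36 from 10.3 to 16.1 and SLC25A38 from 10.7 to 13.1 CPM per kb. SLC25A5 and SLC25A6 together held 54.5 to 56.5% of all carrier counts in the 4 group means. All 12 values of SLC25A5 were fractional, as RSEM writes them where reads are divided among similar transcripts, while those of SLC25A6 and SLC25A4 were whole numbers. The level of SLC25A5 therefore carries the uncertainty of that division. The same limit holds for SLC25A15, SLC25A21, SLC25A35 and SLC25A40, with all values fractional. It also holds for most values of SLC25A30 and SLC25A32 (91.7% fractional each) and of SLC25A22 (83.3%).

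**Figure D1:**
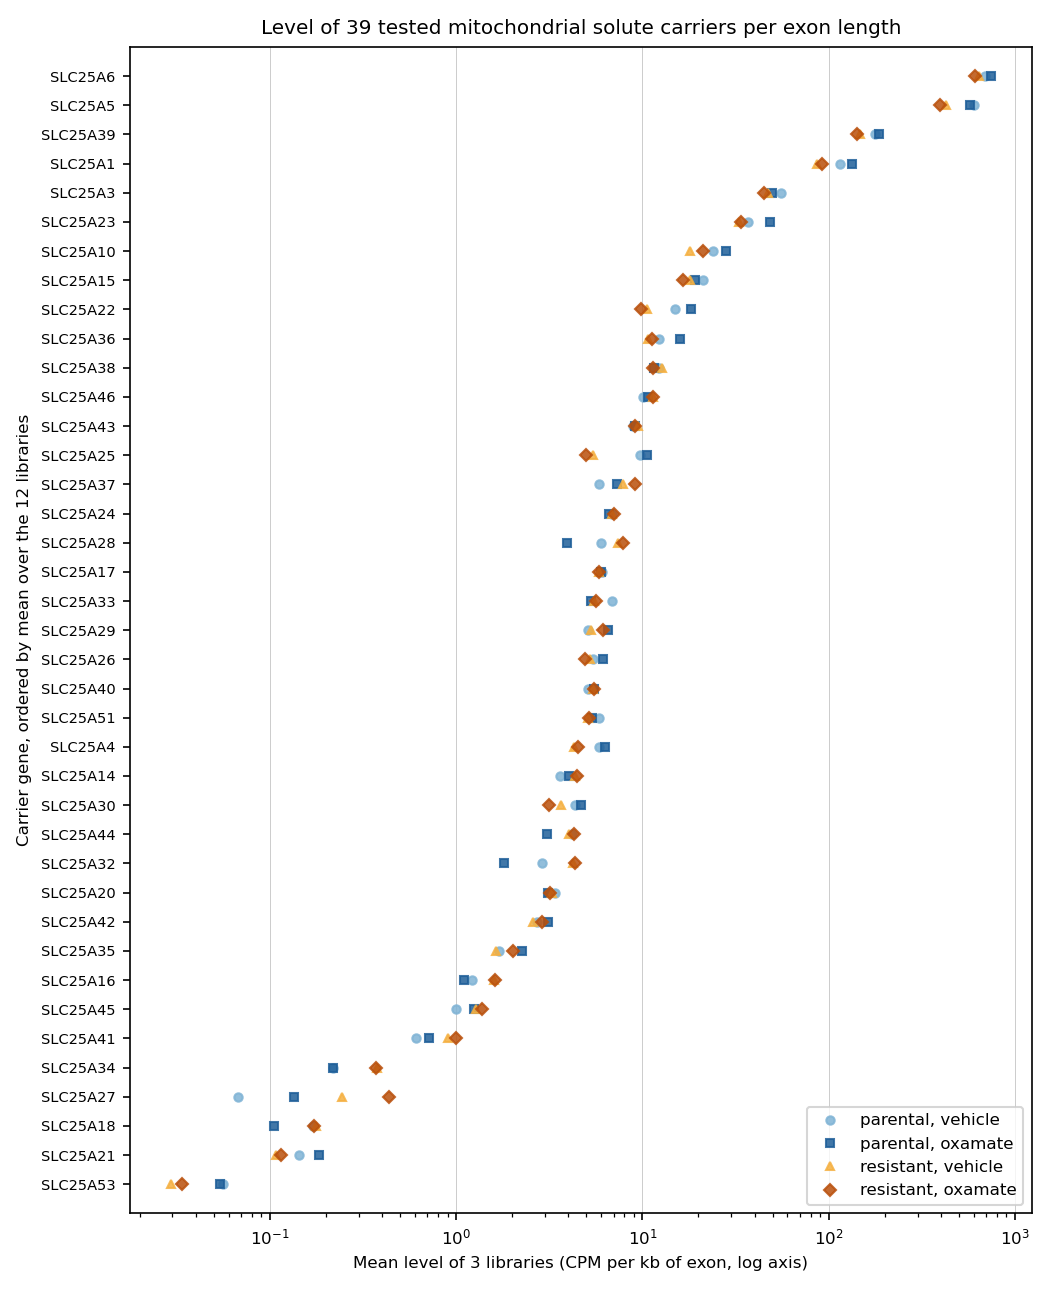
Mean level of 39 tested carriers in the 4 groups (CPM per kb of exon, log axis; points are means of 3 libraries, ordered by the mean over 12 libraries). SLC25A6 and SLC25A5 head the order, with means of 671 and 498 CPM per kb over all libraries, and the group means of the 6 lowest carriers, from SLC25A41 downward, lie below 1.

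The 5 members that were not tested were at or near the floor in every library. SLC25A2, an ornithine carrier, and SLC25A48 reached at most 3 counts. SLC25A47 reached at most 2 counts, SLC25A52, an NAD carrier, at most 1.31 and SLC25A31, the germline ADP/ATP carrier, at most 1. Among the tested members, 6 had a mean under 2 CPM in vehicle-treated parental cells (SLC25A18, SLC25A21, SLC25A27, SLC25A34, SLC25A41 and SLC25A53). Their standard errors on the log2 scale in comparisons of 2 groups ran from 0.16 to 0.348, against 0.0227 to 0.134 for the other 34. Each of these low carriers except SLC25A41 was called past 1.5-fold in at least 1 comparison of groups, and those calls rest on few counts.

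Oxamate moved many carriers in parental cells, mostly by small amounts, and few in resistant cells, as it did over all genes. Genes were called where the quasi-likelihood test of edgeR gave an adjusted p under 0.05, corrected over all genes tested by Benjamini and Hochberg. In parental cells 17 of 40 carriers (42.5%) rose and 9 (22.5%) fell, beside 28.3% and 30.4% of all tested genes. The median log2 fold change was 0.095 over the carriers and 0.003 over all genes. Past 1.5-fold, 1 carrier rose (SLC25A27) and 3 fell (SLC25A18, SLC25A28 and SLC25A32), beside 5.32% and 4.06% of all genes. In resistant cells 3 carriers rose (SLC25A10, SLC25A27 and SLC25A37) and 5 fell (SLC25A5, SLC25A22, SLC25A25, SLC25A30 and SLC25A38), beside 9.01% and 12.5% of all genes. SLC25A27 was the 1 carrier past 1.5-fold there, where 1.16% of genes rose and 0.158% fell by that much. Without both libraries that stood above their groups in MALAT1, the resistant counts became 7 higher and 9 lower, while the parental counts were 18 and 7. Single libraries moved the resistant counts too: 1 carrier rose and 1 fell without vehicle replicate 2 of the resistant cells, and 6 rose and 7 fell without their vehicle replicate 3. The number that fell was 2 without vehicle replicate 1, oxamate replicate 2 or oxamate replicate 3 of the resistant cells, and 5 rose and 7 fell without oxamate replicate 3 of the parental cells. Scaled by library size alone, the parental counts turned to 9 higher and 15 lower, so the balance of directions in parental cells depended on the scaling.

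The test of the difference between both responses called 13 carriers, 12 of which had also been called in parental cells. The response was higher in resistant than in parental cells for 5 of them, among them SLC25A28, SLC25A32, SLC25A33 and SLC25A44, beside 22.7% of all genes. It was lower for 8 (SLC25A6, SLC25A22, SLC25A23, SLC25A25, SLC25A26, SLC25A30, SLC25A36 and SLC25A39), beside 21.4% of all genes. Past 1.5-fold there were 2, SLC25A28 and SLC25A32, on the higher side, beside 4.99% of all genes, and 0 on the lower side, beside 2.53%. Without both libraries rich in MALAT1 the count of lower differences was 10, with SLC25A5 and SLC25A38 added (adjusted p = 0.047 and 0.0458, edgeR), and that of higher ones was 5. SLC25A28, SLC25A32, SLC25A33 and SLC25A44 had each fallen in parental cells, and the calls of their differences held in each alternative analysis that was run.

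**Figure D2:**
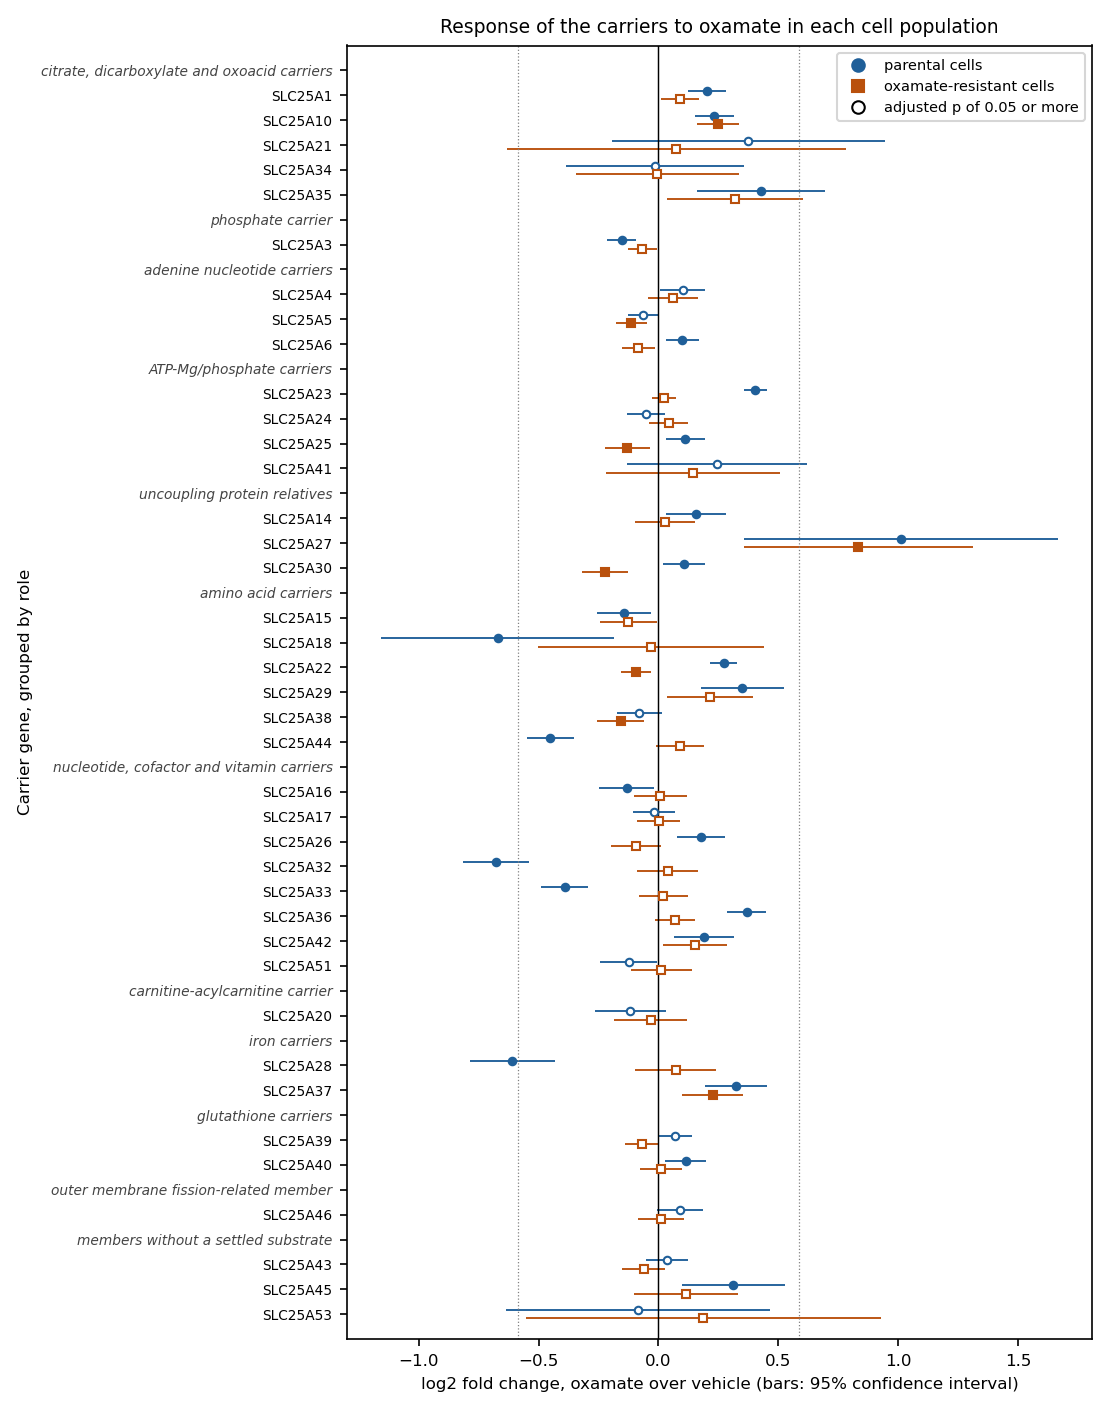
log2 fold change of 39 tested carriers after oxamate in parental (circles) and resistant cells (squares), grouped by role, with 95% confidence intervals; filled marks have an adjusted p under 0.05 and dotted lines mark 1.5-fold. SLC25A32, SLC25A28, SLC25A44 and SLC25A33 lie left of 0 in parental cells, between -0.68 and -0.39, and between 0.02 and 0.09 in resistant cells.

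Between the populations, lower carriers outnumbered higher ones after TMM scaling, with shares of lower carriers near those of all genes. After vehicle, 12 of 40 carriers (30%) were higher and 17 (42.5%) lower in resistant than in parental cells, beside 38.4% and 37.3% of all genes. After oxamate 11 (27.5%) were higher and 15 (37.5%) lower, beside 40.6% and 39.7%. Over 1.5-fold, SLC25A27 and SLC25A34 were higher and SLC25A25 and SLC25A53 lower after vehicle, beside 17% and 6.09% of all genes. After oxamate SLC25A18, SLC25A27, SLC25A28, SLC25A32 and SLC25A34 were higher and SLC25A21, SLC25A22 and SLC25A25 lower by that much, beside 22.7% and 11.4% of all genes. Both comparisons between populations gave 8 carriers as higher and 13 as lower, and none in opposite directions. The share of all genes called in both comparisons was not computed, so these counts are not read as a trait of the carriers. Without both libraries rich in MALAT1 the counts were 11 higher and 18 lower after vehicle and 9 higher and 15 lower after oxamate, where SLC25A14 and SLC25A24 were lost. Every group enters more than 1 comparison, so these counts are not independent. Library size alone shifted the median of all genes from 0.025 to 0.244 after vehicle and from 0.015 to 0.339 after oxamate. Under that scaling 22 carriers were higher and 8 lower after vehicle, and 24 and 10 after oxamate, so directions between the populations are relative to TMM. SLC25A1, SLC25A4, SLC25A5, SLC25A10, SLC25A22 and SLC25A25 were lower in both media, and SLC25A16, SLC25A27, SLC25A28, SLC25A32, SLC25A34 and SLC25A37 higher in both, under each alternative run, that scaling included.

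**Figure D3:**
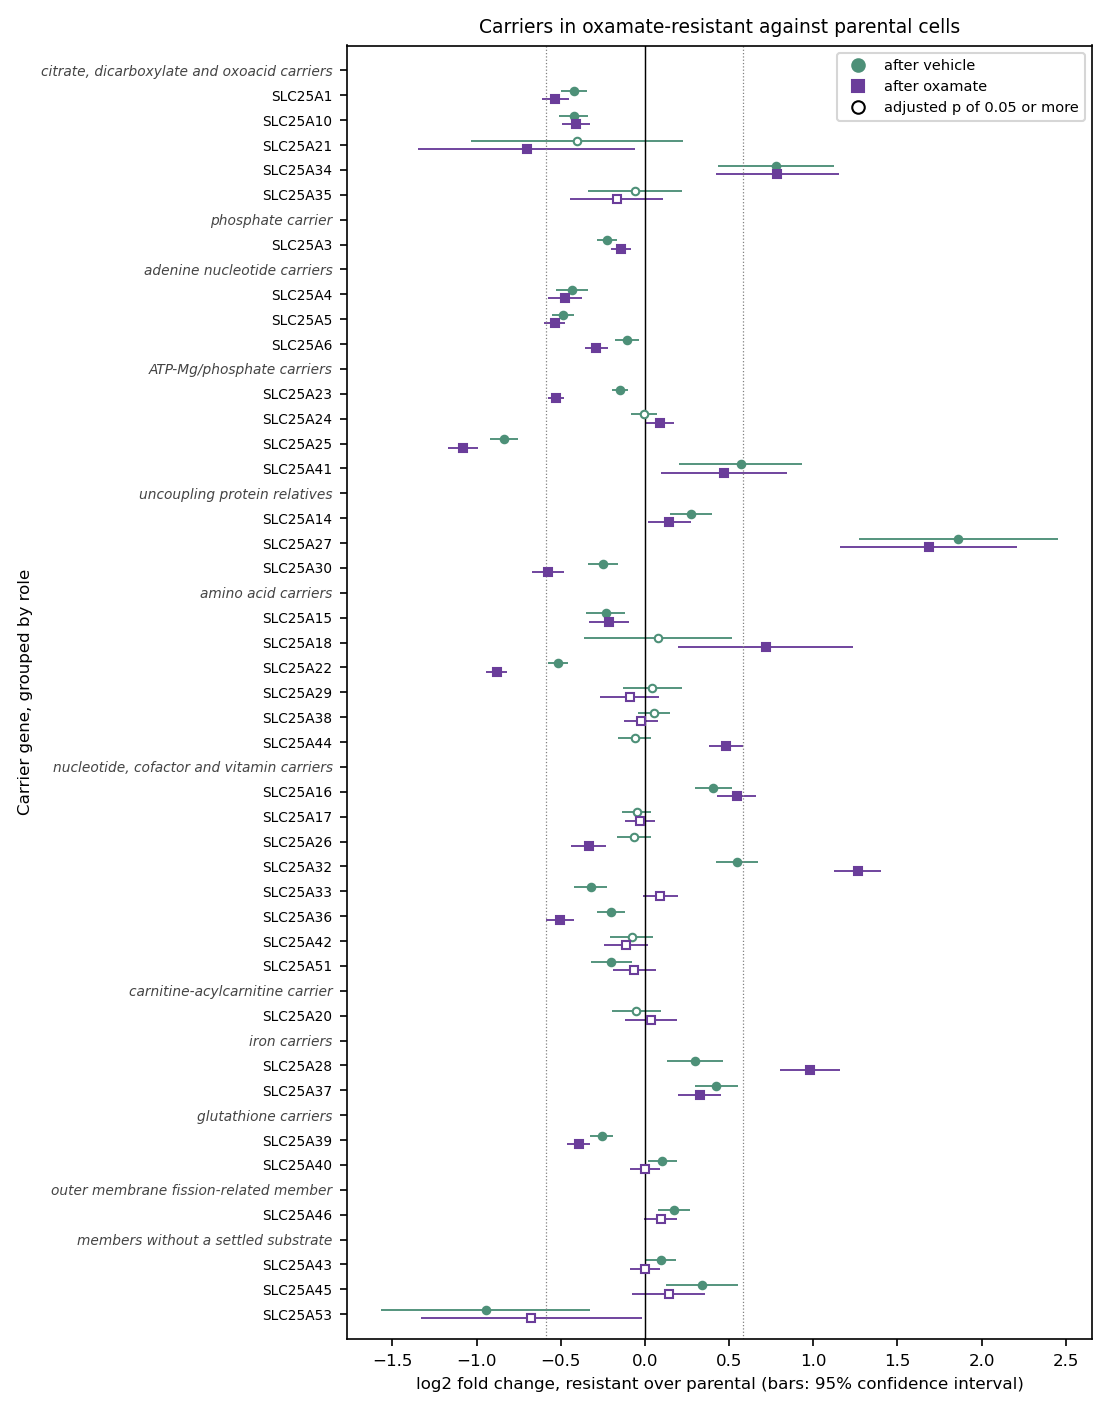
log2 fold change of 39 tested carriers in resistant over parental cells after vehicle (circles) and after oxamate (squares), grouped by role, with 95% confidence intervals; filled marks have an adjusted p under 0.05 and dotted lines mark 1.5-fold. SLC25A27 is farthest right, at 1.86 and 1.69, and SLC25A25 is at -0.84 and -1.08.

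The mitoferrins bring iron to the mitochondrial matrix for heme and iron-sulfur clusters, and oxamate moved both of them in opposite directions in parental cells. SLC25A28, mitoferrin-2, measured 9.39, 8.66 and 8.19 CPM in the 3 vehicle-treated parental libraries and 5.76, 5.01 and 6.39 CPM after oxamate. All 3 oxamate libraries lay below all 3 vehicle libraries (log2 fold change -0.61 ± 0.0835 SE, adjusted p = 1.28e-05, edgeR). Resistant cells held 10.5, 10.1 and 11.8 CPM after vehicle and 10.8, 11.6 and 11.7 CPM after oxamate, and these groups overlapped (0.07, 95% interval -0.096 to 0.241). SLC25A28 was therefore 1.23-fold higher in resistant than in parental cells after vehicle and 1.97-fold higher after oxamate, with a difference between responses of 0.68 (interval 0.438 to 0.928). SLC25A37, mitoferrin-1, best known from red cell precursors, measured 28, 28.7 and 27.7 CPM in vehicle-treated parental cells and 32.5, 33.9 and 39 CPM after oxamate. It rose in both populations, by 0.32 and 0.23 on the log2 scale, and was 1.34-fold higher in resistant cells after vehicle and 1.25-fold higher after oxamate. Without vehicle replicate 1 or 2 or oxamate replicate 3 of the resistant cells, the call for SLC25A37 in resistant cells was lost (adjusted p between 0.063 and 0.0863, edgeR). SLC25A28 overlaps a divergent transcript in the annotation.

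The ratio of SLC25A37 to SLC25A28 counts within a library needs no scaling between libraries. It was 2.98, 3.31 and 3.38 in vehicle-treated parental cells and 5.64, 6.76 and 6.11 after oxamate, while all 6 resistant libraries lay between 3.46 and 4.11. This pair and the other ratios below were chosen after their values were seen and are descriptions.

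The pyrimidine nucleotide carriers SLC25A33 (PNC1) and SLC25A36 (PNC2), which supply the matrix with precursors for mitochondrial DNA and RNA synthesis, also diverged in oxamate-treated parental cells. SLC25A33 went from 26.6, 27.1 and 26.1 CPM to 20.3, 21.4 and 19.2 CPM (log2 fold change -0.39 ± 0.0469, adjusted p = 3.08e-06, edgeR). SLC25A36 went from 88.8, 95.1 and 98.3 CPM to 120, 121 and 123 CPM (0.37 ± 0.0382, adjusted p = 6.73e-07, edgeR). The groups did not overlap for either gene. In resistant cells neither was called, with intervals of -0.083 to 0.125 for SLC25A33 and -0.016 to 0.153 for SLC25A36. SLC25A36 was called there without replicate 3 of vehicle-treated resistant cells (0.12, adjusted p = 0.0363, edgeR) and without both libraries rich in MALAT1 (0.11, adjusted p = 0.0227). The responses differed between the populations by 0.41 for SLC25A33 and -0.30 for SLC25A36. Their ratio, SLC25A36 over SLC25A33, was 3.54 ± 0.216 (SD, n = 3) in parental cells after vehicle, 5.99 ± 0.363 after oxamate, and 3.84 ± 0.203 and 3.97 ± 0.119 in resistant cells.

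The sequences before the starts of both pyrimidine nucleotide carriers and of SLC25A28 are shown because these genes carry the opposite movements above. They are the 250 bases before the listed RefSeq start on GRCh38.p14, at chr1:9539215-9539464 (plus strand) for SLC25A33, chr3:140941586-140941835 (plus strand) for SLC25A36 and chr10:99620440-99620689 (minus strand) for SLC25A28. For SLC25A28 this start lies inside the annotated gene, which spans 99610522 to 99659286. Its window therefore does not precede the outermost start of the gene. Each is printed 5′ to 3′ with capitals marking CACGTG, the E-box that factors of the MYC and HIF families can bind.
SLC25A33: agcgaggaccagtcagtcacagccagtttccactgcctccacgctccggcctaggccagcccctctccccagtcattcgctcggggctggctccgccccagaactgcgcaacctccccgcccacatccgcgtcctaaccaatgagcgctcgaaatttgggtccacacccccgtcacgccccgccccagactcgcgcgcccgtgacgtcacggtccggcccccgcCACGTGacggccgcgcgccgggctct
SLC25A36: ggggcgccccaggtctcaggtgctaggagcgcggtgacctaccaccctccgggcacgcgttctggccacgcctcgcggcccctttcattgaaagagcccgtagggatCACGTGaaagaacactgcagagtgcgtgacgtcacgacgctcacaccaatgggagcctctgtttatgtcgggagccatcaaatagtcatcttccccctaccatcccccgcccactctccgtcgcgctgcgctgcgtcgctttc
SLC25A28: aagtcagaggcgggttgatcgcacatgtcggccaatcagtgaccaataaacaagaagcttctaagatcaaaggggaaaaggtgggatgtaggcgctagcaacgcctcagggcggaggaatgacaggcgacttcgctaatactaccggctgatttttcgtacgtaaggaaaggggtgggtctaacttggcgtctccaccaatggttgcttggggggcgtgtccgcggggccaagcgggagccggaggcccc
CACGTG begins at position -26 relative to the start of SLC25A33 and at -143 relative to that of SLC25A36, and does not occur in the window of SLC25A28. Both pyrimidine nucleotide carriers, which moved opposite ways, held it. Windows of 250 bases before to 50 after each start were listed for 37 of the 45 members, and 8 of these (21.6%) held CACGTG on either strand in at least 1 window, beside 8.79% of 27195 genes. The shorter ACGTG, which is contained in CACGTG, was in 13 of 37 (35.1%) beside 24.9% of genes. TGATGNAA, a form of the amino acid response element, and TGCGCATGC, the element of NRF1, were in 0 of 37, beside 4.46% and 1.88% of genes. A match is a description of the letters and not a bound site.

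**Figure D4:**
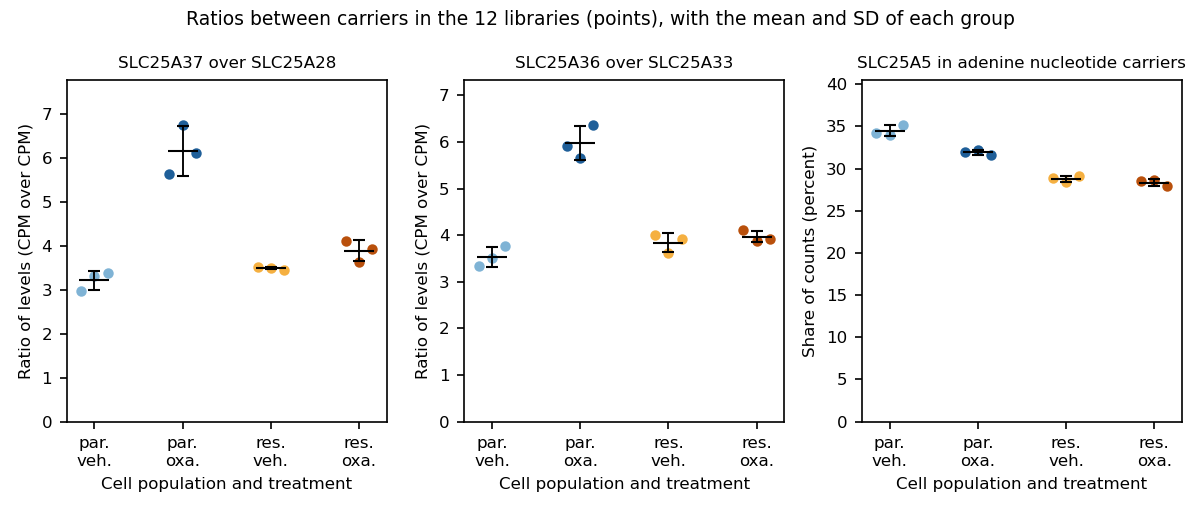
Ratios within each of the 12 libraries (points; bars are the mean and SD of 3 libraries) for SLC25A37 over SLC25A28, SLC25A36 over SLC25A33, and the percent of adenine nucleotide carrier counts held by SLC25A5; par. and res. are parental and resistant cells, veh. and oxa. vehicle and oxamate. Both ratios stand highest in oxamate-treated parental cells, at means of 6.17 and 5.99, and the SLC25A5 share falls from 34.5% to 28.3%.

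Of the 9 tested carriers of nucleotides, cofactors and vitamins, 3 rose and 4 fell in oxamate-treated parental cells and 0 of 9 were called in resistant cells, beside 28.3% and 30.4% of all genes in parental and 9.01% and 12.5% in resistant cells. Their median log2 fold changes were -0.124 and 0.012. SLC25A32, which carries folate and flavin across the inner membrane, had the smallest p of all carriers that fell. It measured 8.5, 7.83 and 8.77 CPM in vehicle-treated parental cells, 5.06, 5.77 and 4.9 CPM after oxamate, 12.7, 12.1 and 11.9 CPM in vehicle-treated resistant cells and 12.8, 12.4 and 12.4 CPM in resistant cells after oxamate. The 3 levels, oxamate-treated parental, vehicle-treated parental and resistant, did not overlap. SLC25A32 fell by 0.68 ± 0.065 SE in parental cells (adjusted p = 2.95e-07, edgeR) and its interval in resistant cells was -0.088 to 0.164. Resistant cells held 1.46-fold more after vehicle and 2.40-fold more after oxamate (adjusted p = 4.14e-07 and 3.05e-11, edgeR). Of 5 mitochondrial folate enzymes, 1 rose and 2 fell in oxamate-treated parental cells, and 4 of 5 were lower in resistant cells in each medium, beside 37.3% and 39.7% of all genes. Under library size alone 0 of the 5 were lower, and 2 were higher after vehicle and 3 after oxamate, while the rise in parental cells was lost under DESeq2 among other alternatives.

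SLC25A16, a carrier tied to coenzyme A, was higher in resistant cells by 0.41 after vehicle and 0.55 after oxamate, with all 6 resistant libraries between 10.1 and 10.9 CPM and all 6 parental ones between 6.78 and 8.2 CPM. Its fall of 0.13 in parental cells (adjusted p = 0.0438, edgeR) was lost in 12 of 22 alternatives, DESeq2 among them (adjusted p = 0.125). SLC25A26, which imports S-adenosylmethionine, rose by 0.18 in parental cells and was 0.33 lower in resistant than in parental cells after oxamate. Under library size alone these values were 0.10 and -0.01 and neither passed the test (adjusted p = 0.057 and 0.855, edgeR). SLC25A42, another coenzyme A carrier, rose by 0.19 in parental cells and gave 0.15 in resistant cells without passing the test. The NAD carrier SLC25A51 was 0.20 lower in resistant cells after vehicle, a direction that turned to 0.02 under library size alone. SLC25A17 was called in none of the 5 contrasts, with log2 fold changes between -0.05 and 0.02. Under library size alone it was higher in resistant cells by 0.17 after vehicle and 0.30 after oxamate (adjusted p = 0.000734 and 4.61e-06, edgeR). In parental cells that scaling gave a fall with oxamate (-0.09, adjusted p = 0.043, edgeR).

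**Figure D5:**
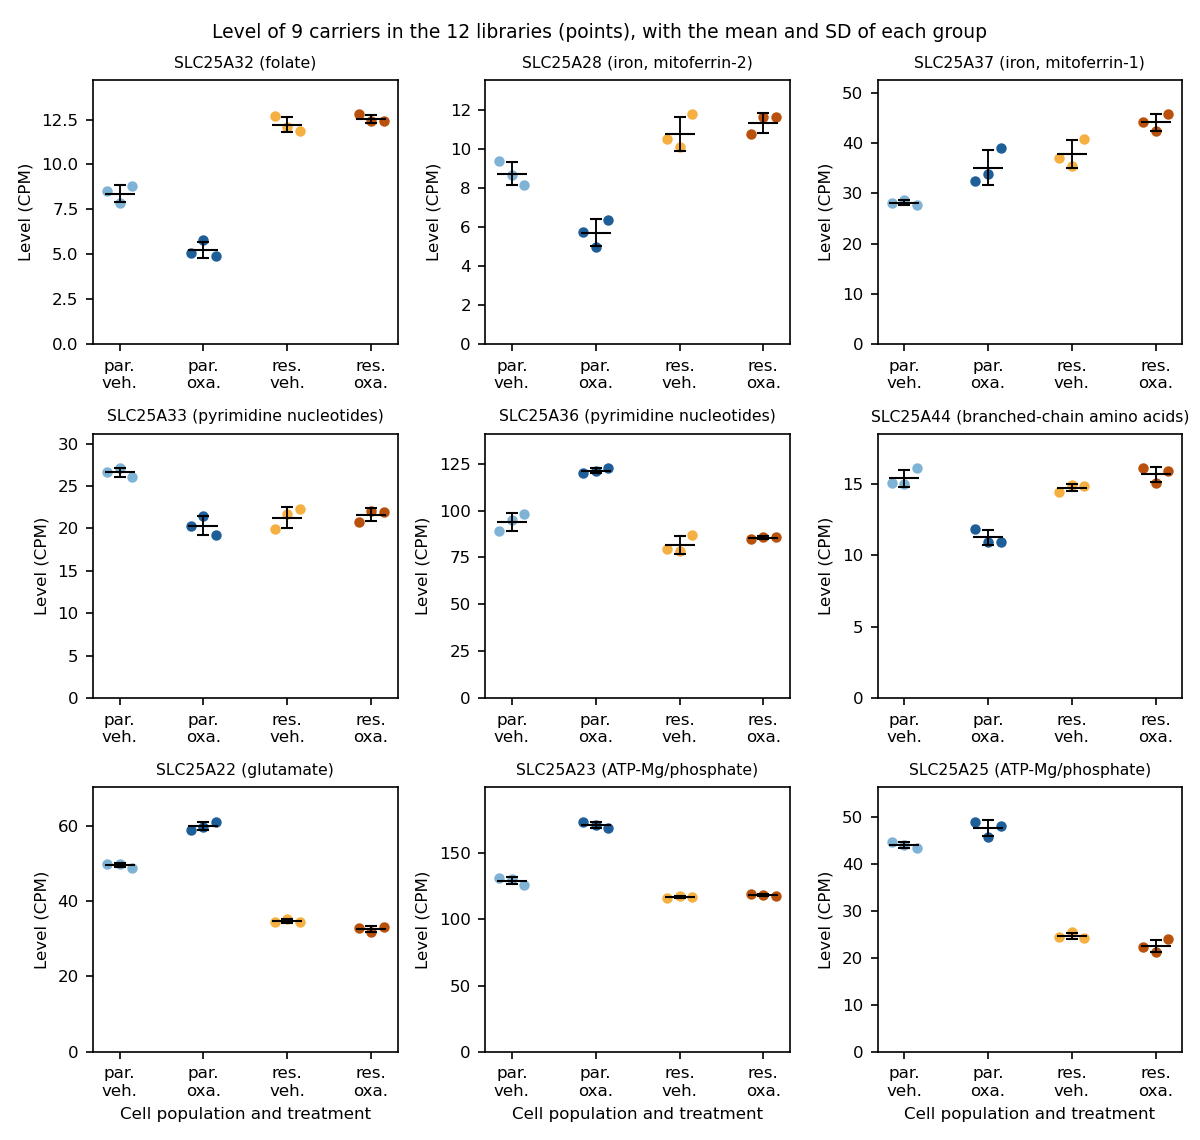
Level in CPM of 9 carriers in each of the 12 libraries (points; bars are the mean and SD of 3 libraries, and each axis starts at 0); par. and res. are parental and resistant cells, veh. and oxa. vehicle and oxamate. SLC25A32 is lowest in oxamate-treated parental cells, at 5.24 CPM, and highest in resistant cells, at 12.2 and 12.5 CPM, and SLC25A22, SLC25A23 and SLC25A25 are highest in oxamate-treated parental cells.

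Among the 6 tested amino acid carriers, 2 rose and 3 fell in oxamate-treated parental cells, beside 28.3% and 30.4% of all genes. SLC25A44, which takes branched-chain amino acids to the matrix, fell from 15.1, 15 and 16.1 CPM to 11.9, 10.9 and 10.9 CPM (log2 fold change -0.45 ± 0.0466, adjusted p = 6.51e-07, edgeR). In resistant cells it measured 14.4, 14.9 and 14.8 CPM after vehicle and 16.1, 15.1 and 15.9 CPM after oxamate, which was not called (interval -0.009 to 0.191). Of all carriers with a higher response in resistant cells it had the smallest p, with a difference of 0.54 ± 0.0661 (adjusted p = 8.68e-06, edgeR). The interval of the difference between populations after vehicle was -0.157 to 0.036, while after oxamate resistant cells held 1.40-fold more.

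SLC25A22, the glutamate carrier, moved the other way. It measured 50, 50 and 48.9 CPM in parental cells and 59, 59.7 and 61 CPM after oxamate, and 34.5, 35.4 and 34.3 CPM in resistant cells and 32.8, 31.7 and 33.1 CPM after oxamate. No groups overlapped. The log2 fold change was 0.27 ± 0.027 in parental cells (adjusted p = 4.21e-07, edgeR) and -0.09 ± 0.0298 in resistant cells (adjusted p = 0.0344, edgeR). The call in resistant cells was lost without vehicle replicate 1 or 2 or without any one of the oxamate replicates (adjusted p between 0.0516 and 0.13), and under DESeq2 (0.0693). Resistant cells held 1.43-fold less after vehicle and 1.84-fold less after oxamate, the latter with the smallest p of all lower carriers (adjusted p = 1.33e-13, edgeR). SLC25A18, a second glutamate carrier with 13 to 37 counts per library, measured 0.349, 0.355 and 0.45 CPM in parental cells and 0.232, 0.248 and 0.232 CPM after oxamate, and its group means in resistant cells were 0.399 and 0.39 CPM. It fell by 0.67 ± 0.229 in parental cells (adjusted p = 0.0197, edgeR) and was 1.65-fold higher in resistant cells after oxamate (adjusted p = 0.0138). The parental call ended without vehicle replicate 3 or oxamate replicate 1 or 3 (adjusted p between 0.0519 and 0.0665, edgeR) and the other without oxamate replicate 3 of resistant cells (0.068). DESeq2 called neither (adjusted p = 0.114 and 0.0856).

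SLC25A29, a carrier of basic amino acids, rose by 0.35 in parental cells, from a mean of 28.5 to 36.3 CPM, with replicate 3 at 42.3 CPM. Without that replicate the rise was 0.22 and still called (adjusted p = 0.00577, edgeR). In resistant cells it gave 0.21 without passing the test, and it was called after both libraries rich in MALAT1 were left out (0.29, adjusted p = 0.00033, edgeR). SLC25A15, the ornithine carrier of the urea cycle, fell by 0.14 in parental cells and was 0.23 and 0.22 lower in resistant cells, although after oxamate library size alone turned this to 0.11. All 12 values of SLC25A15 were fractional, as RSEM writes them where reads are divided among similar transcripts, and the parental call was lost without oxamate replicate 3 (adjusted p = 0.152, edgeR), among other libraries. SLC25A38, a glycine carrier required for heme synthesis, fell by 0.16 in resistant cells, a call that was lost without vehicle replicate 2 or oxamate replicate 2 or 3 (adjusted p between 0.0617 and 0.109, edgeR).

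The ATP-Mg/phosphate carriers, which set the adenine nucleotide content of the matrix in response to calcium, included the carriers with the smallest p among those that rose in parental cells and among those lower in vehicle-treated resistant cells. SLC25A23 measured 131, 131 and 126 CPM in parental cells and 174, 171 and 169 CPM after oxamate (log2 fold change 0.40 ± 0.0227, adjusted p = 9.05e-10, edgeR). All 6 resistant libraries lay between 116 and 119 CPM, and the interval of their response was -0.027 to 0.072. The difference between responses was -0.38 ± 0.0325 (adjusted p = 2.41e-07, edgeR). SLC25A23 was 0.15 lower in resistant cells after vehicle, which turned to 0.07 under library size alone, and 0.53 lower after oxamate. It overlaps SLC25A41 in the annotation, and the library kit does not mark strand.

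SLC25A25 measured 44.5, 44 and 43.4 CPM in vehicle-treated parental cells and 48.9, 45.6 and 48 CPM after oxamate. Resistant cells held 24.3, 25.4 and 24.1 CPM after vehicle and 22.3, 21.2 and 23.9 CPM after oxamate, below every parental library. The difference was 1.79-fold after vehicle (adjusted p = 3.03e-11, edgeR) and 2.11-fold after oxamate (adjusted p = 9.97e-13). Its responses were small and of opposite sign, 0.11 in parental and -0.13 in resistant cells, with a difference of -0.24 ± 0.0582 (adjusted p = 0.00309, edgeR). Both responses were lost without at least one of several libraries, with an adjusted p of up to 0.0833 in parental and 0.186 in resistant cells. SLC25A24 kept group means of 43.3 to 46.1 CPM and was called once, 0.09 higher in resistant cells after oxamate, which did not hold under DESeq2 (adjusted p = 0.0726). SLC25A41, a low member, was 0.57 and 0.47 higher in resistant cells. The first call was lost without vehicle replicate 3 of the resistant cells (0.42, adjusted p = 0.0519, edgeR) and the second without oxamate replicate 1 or 2 of the parental or oxamate replicate 3 of the resistant cells (adjusted p between 0.0676 and 0.0871).

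All 3 tested adenine nucleotide carriers were lower in resistant cells in both media, beside 37.3% (vehicle) and 39.7% (oxamate) of all genes. SLC25A5 (ANT2), the form of dividing cells, measured 788, 748 and 754 CPM in vehicle-treated parental cells and 547, 552 and 533 CPM in vehicle-treated resistant cells, and 699 to 750 CPM against 491 to 510 CPM after oxamate. It was 1.40-fold lower after vehicle and 1.45-fold lower after oxamate (adjusted p = 5.67e-10 and 9.35e-11, edgeR). SLC25A4 (ANT1), the heart and muscle form, was lower by 0.43 and 0.47 on the log2 scale at means of 25.9 and 19.2 CPM after vehicle. SLC25A6 (ANT3), the most abundant, was lower by 0.11 and 0.29, and under library size alone these values turned to 0.11 and 0.04. Its groups overlapped after vehicle, and that call was lost without vehicle replicate 1 of the parental cells (adjusted p = 0.055, edgeR). Within each library SLC25A5 held 34.2, 34 and 35.2% of the counts of these 3 genes in vehicle-treated parental cells and 32, 32.2 and 31.6% after oxamate. In resistant cells it held 28.9, 28.4 and 29.1% after vehicle and 28.5, 28.6 and 27.9% after oxamate. SLC25A6 held a mean of 64.4% in vehicle-treated parental cells and 70.5% in oxamate-treated resistant cells. In response to oxamate, SLC25A6 rose by 0.10 in parental cells with overlapping groups, and SLC25A5 fell by 0.11 in resistant cells. The first call was lost without vehicle replicate 3 or oxamate replicate 1 of the parental cells (adjusted p = 0.0958 and 0.0631, edgeR), the second without vehicle replicate 1 or 2 or oxamate replicate 3 of the resistant cells (between 0.0538 and 0.0758).

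Citrate, dicarboxylate and oxoacid carriers rose with oxamate in parental cells in 3 of 5 cases and fell in 0, beside 28.3% and 30.4% of all genes. SLC25A1, which exports citrate for lipid synthesis, went from 211, 210 and 196 CPM to 248, 235 and 228 CPM and rose by 0.20. It was lower in resistant cells by 0.42 after vehicle and 0.53 after oxamate. SLC25A10, which exchanges malate and succinate for phosphate, measured 50.7, 48.1 and 46.7 CPM in parental cells and 59.4, 56.1 and 55.9 CPM after oxamate. The resistant libraries gave 36.2, 37.7 and 34.7 CPM after vehicle and 44.4, 41.6 and 43 CPM after oxamate, and no groups overlapped. SLC25A10 rose in both, by 0.23 ± 0.0387 and 0.25 ± 0.0415 (adjusted p = 8.63e-05 and 0.000815, edgeR), with an interval of the difference of -0.107 to 0.134. It had the smallest p of the carriers that rose in resistant cells, and with SLC25A30 it was one of only 2 calls there that held in each alternative run. It was 0.42 and 0.41 lower in resistant cells.

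The less studied SLC25A34 measured 0.651, 0.68 and 0.627 CPM in vehicle-treated parental cells and 1.05, 1.14 and 1.18 CPM in vehicle-treated resistant cells, with 31 to 82 counts per library. Resistant cells held 1.72-fold more after vehicle and 1.73-fold more after oxamate (adjusted p = 0.0004 and 0.00057, edgeR), and oxamate itself gave intervals of -0.387 to 0.357 in parental and -0.346 to 0.335 in resistant cells. Reads of SLC25A34 and of its antisense gene cannot be told apart without strand. SLC25A35 rose by 0.43 in parental cells and gave 0.32 in resistant cells, and was called there without both libraries rich in MALAT1 (0.48, adjusted p = 0.00109, edgeR). Without replicate 3 of oxamate-treated parental cells its parental call was lost (0.27, adjusted p = 0.0546, edgeR). SLC25A21, the oxodicarboxylate carrier, was 1.63-fold lower in resistant cells after oxamate at 0.326 against 0.524 CPM, with overlapping groups (adjusted p = 0.0425, edgeR), and 9 alternatives ended this call, among them leaving out oxamate replicate 2 of the parental cells (-0.51, adjusted p = 0.168, edgeR). The phosphate carrier SLC25A3, which brings in the phosphate for ATP synthesis, fell by 0.15 in parental cells. It was 0.23 lower in resistant cells after vehicle and 0.14 lower after oxamate, values that became -0.007 and 0.184 under library size alone.

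All 3 tested relatives of the uncoupling proteins rose in oxamate-treated parental cells, beside 28.3% of all genes, but the amounts differed widely. SLC25A27 (UCP4), known mainly from neurons, measured 0.16, 0.223 and 0.225 CPM in vehicle-treated parental cells and 0.268, 0.457 and 0.478 CPM after oxamate, from 14 to 80 counts per library over all groups. Resistant cells held 0.698, 0.521 and 0.976 CPM after vehicle and 1.53, 1.14 and 1.24 CPM after oxamate. None of the 4 groups overlapped. SLC25A27 rose by 1.01 ± 0.308 in parental cells (adjusted p = 0.0104, edgeR) and by 0.83 ± 0.225 in resistant cells (adjusted p = 0.0164). The parental call ended without vehicle replicate 1 or oxamate replicate 3 (adjusted p = 0.0511 and 0.0571, edgeR), and the resistant call without vehicle replicate 1 or 2 or oxamate replicate 1 (between 0.0633 and 0.09). Resistant cells held 3.64-fold more after vehicle and 3.22-fold more after oxamate (adjusted p = 1.62e-05 and 1.04e-05, edgeR), which held in each alternative run. SLC25A27 overlaps an antisense gene, so its reads share the limit on strand. The same limit can hold for other members with an overlapping gene in the annotation. Among these were SLC25A5, SLC25A21, SLC25A26, SLC25A29, SLC25A30, SLC25A35, SLC25A45 and SLC25A53.

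SLC25A30 (KMCP1), first described in kidney, measured 15.9, 16.4 and 16.8 CPM in parental cells and 17.6, 17.2 and 17.9 CPM after oxamate. Resistant cells held 13.3, 14.5 and 13.5 CPM after vehicle and 11.6, 12 and 11.8 CPM after oxamate, and no groups overlapped. SLC25A30 rose by 0.11 in parental cells and fell by 0.22 ± 0.0452 in resistant cells (adjusted p = 0.0031, edgeR), the smallest p of the carriers that fell there, and the responses differed by -0.33 (adjusted p = 0.000403). The parental rise was lost under DESeq2 (adjusted p = 0.124) and without several single libraries. SLC25A14 (UCP5) rose by 0.16 in parental cells and was 0.27 and 0.14 higher in resistant cells, of which the rise and the difference after oxamate did not hold under DESeq2 (adjusted p = 0.111 and 0.13). UCP2, which belongs to the same family under another symbol, was not called in parental cells (0.05) and fell by 0.16 in resistant cells (adjusted p = 0.0373, edgeR). That call was lost under library size alone and without parental vehicle replicate 2, resistant vehicle replicate 1 or 2, or resistant oxamate replicate 2 or 3.

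The glutathione carrier SLC25A39 was 0.26 lower in resistant cells after vehicle and 0.39 lower after oxamate, with all 6 resistant libraries between 231 and 250 CPM and all 6 parental ones between 278 and 314 CPM. Under library size alone the differences shrank to -0.04, which was not called, and -0.07 (adjusted p = 0.249 and 0.0391, edgeR). Its paralog SLC25A40, at 20.6 to 22.3 CPM in the group means, rose by 0.11 in parental cells and was 0.10 higher in vehicle-treated resistant cells, but neither call held under DESeq2 (adjusted p = 0.0597 and 0.0745) or without vehicle replicate 1 of the parental cells (adjusted p = 0.107 and 0.127, edgeR). SLC25A20, which carries acylcarnitines for fatty acid oxidation, was called in none of the 5 contrasts, with log2 fold changes between -0.12 and 0.09. Under library size alone it fell in parental cells (-0.19, adjusted p = 0.0203, edgeR). That scaling also made it higher in resistant cells after vehicle and after oxamate (0.17 and 0.36, adjusted p = 0.0291 and 0.000207). Without oxamate replicate 2 of the parental cells, its fall there was called too (-0.20, adjusted p = 0.0178, edgeR). SLC25A46 was 0.17 higher in resistant cells after vehicle. Among members without a settled substrate, SLC25A45 rose by 0.31 in parental cells and was 0.34 higher in vehicle-treated resistant cells, and SLC25A43 was 0.10 higher there with overlapping groups. The SLC25A45 rise was lost without vehicle or oxamate replicate 3 of the parental cells (adjusted p = 0.0629 and 0.0645, edgeR) and its difference without vehicle replicate 2 of the resistant cells (0.0573). The SLC25A43 call was lost in 8 alternatives, DESeq2 among them (adjusted p = 0.0959). SLC25A53, at 7 to 41 counts per library, measured 0.387, 0.355 and 0.306 CPM in vehicle-treated parental cells and 0.244, 0.118 and 0.188 CPM in vehicle-treated resistant cells. Its decrease of 1.93-fold (adjusted p = 0.0082, edgeR) was not called without replicate 2 of vehicle-treated resistant cells (adjusted p = 0.0541).

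The voltage-dependent anion channels of the outer membrane and the mitochondrial pyruvate carriers were lower in resistant cells in 5 of 5 cases in both media, beside 37.3% of all genes after vehicle and 39.7% after oxamate. MPC1, a subunit of the pyruvate carrier, went from a mean of 8.3 CPM in vehicle-treated parental to 4.73 CPM in vehicle-treated resistant cells (log2 fold change -0.81, adjusted p = 9.01e-07, edgeR), and its partner MPC2 from 73.4 to 51.6 CPM (-0.51). VDAC1 was 0.41 and VDAC2 0.33 lower after vehicle, and VDAC3 0.09 lower. Under library size alone 1 of the 5 was instead higher in each medium. In oxamate-treated parental cells VDAC1, VDAC2 and MPC2 rose, by 0.14, 0.13 and 0.16, while MPC1 fell by 0.30. The MPC1 call was lost without oxamate replicate 2 of the parental cells, where the 3 oxamate libraries measured 7.89, 5.98 and 6.38 CPM. Of 10 genes of the TIM22 import route, 2 rose and 6 fell in oxamate-treated parental cells, beside 28.3% and 30.4% of all genes, and 5 of 10 were lower in resistant cells after vehicle. Under library size alone, 4 of the 10 were higher and 0 lower after vehicle. Of 11 genes of mitochondrial heme and iron-sulfur synthesis, the users of imported iron, 4 rose and 4 fell in oxamate-treated parental cells, while 3 were higher and 6 lower in vehicle-treated resistant cells, beside 38.4% and 37.3% of all genes. Library size alone turned the latter to 6 higher and 3 lower, and left 2 of the 11 that rose in parental cells. LDHA itself rose in parental cells from a mean of 1074 to 1647 CPM and in resistant cells from 960 to 1213 CPM.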

How the data were processed

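RNA-seq libraries from 12 samples (3 per group, grouped by the labels) were prepared with a poly(A) kit that does not mark strand. The deposited table holds expected counts per gene symbol, which, per the labels, the authors made with Bowtie2 2.1.0 and RSEM 1.2.15 on hg38, and 11.6% of the values are not whole. The study's methods also describe another aligner and counter. Values were rounded to whole numbers, filtered with filterByExpr and scaled by TMM, and 14582 of 26475 symbols were tested with edgeR 4.0.16 in R 4.3.3 (quasi-likelihood test, 4 group means over 12 libraries, Benjamini-Hochberg adjustment). CPM and CPM per kilobase of exon (all GENCODE exons of a gene merged) were computed from the same counts. Depth is given with the results and limits the low carriers.

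Members and lists were chosen with earlier results of these data known. Named in full were members called past 1.5-fold in any contrast and those with the smallest p of each direction; others are given by role, and a few more were detailed after their values were seen. Alternatives were RLE size factors, library size alone, no filter or a mean count of at least 25, unrounded counts, DESeq2 1.42.0, limma-voom (limma 3.58.1), a replicate block, the 6 libraries compared, each library left out, and, chosen after seeing the data, both libraries rich in MALAT1 and NEAT1 left out. The values of 1 tested member are not reported here, although counts over all members hold it. Scripts were tested on simulated data. Promoter sequences came from RefSeq on GRCh38.p14.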

Additional observations from a re-analysis of the deposited data

Results flagged for a closer look

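The response to oxamate differed between resistant and parental cells for 13 carriers, 12 of them named here, in edgeR's interaction test. In log2 units, resistant minus parental, the difference was 0.72 for SLC25A32, 0.68 for SLC25A28, 0.54 for SLC25A44 and 0.41 for SLC25A33. It was -0.38 for SLC25A23, -0.37 for SLC25A22, -0.33 for SLC25A30, -0.3 for SLC25A36, -0.27 for SLC25A26, -0.24 for SLC25A25, -0.18 for SLC25A6 and -0.14 for SLC25A39. Under library size alone the differences of SLC25A6, SLC25A25 and SLC25A39 no longer passed the test. Leaving out single libraries also ended that of SLC25A39 (adjusted p between 0.05 and 0.0646, edgeR). These were vehicle replicate 2 or 3 or oxamate replicate 1 of the parental cells, and vehicle replicate 2 of the resistant cells.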

How the results depend on the processing

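Scaling by library size alone changed the most, because it moves the median of all genes. In parental cells it gave 9 carriers that rose and 15 that fell, with a median of 0.019, and in resistant cells 3 that fell, with a median of 0.047. Between populations it gave 22 higher (6 past 1.5-fold) and 8 lower after vehicle, median 0.158, and 24 higher (9 past 1.5-fold) after oxamate with 1 lower past 1.5-fold, median 0.278. For the difference of responses it gave 9 higher and 5 lower, median 0.027. Directions reversed after vehicle for SLC25A6 (0.114), SLC25A17 (0.171), SLC25A20 (0.169), SLC25A23 (0.072), SLC25A24 (0.215), SLC25A26 (0.157), SLC25A36 (0.017), SLC25A42 (0.141), SLC25A44 (0.158) and SLC25A51 (0.02). After oxamate they reversed for SLC25A3 (0.184), SLC25A6 (0.037), SLC25A15 (0.11), SLC25A17 (0.297), SLC25A29 (0.233), SLC25A38 (0.301), SLC25A40 (0.324), SLC25A42 (0.211), SLC25A43 (0.323) and SLC25A51 (0.26).

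In resistant cells 5 carriers rose under the replicate block, which lost no call and added 6, and 5 rose when only the 6 libraries compared were fitted. A mean count of at least 25 gave 3 that fell there and 1 past 1.5-fold lower in vehicle-treated resistant cells. Without both libraries rich in MALAT1 and NEAT1, 7 rose and 9 fell in resistant cells, and the median difference of responses was -0.036. The cause was not tested. Nothing in the labels says that replicate numbers mark shared cultures. Correlations of same-numbered libraries ran from -0.099 to 0.372, against -0.299 to 0.185 for other numbers, so not every pair moved together, and 7 of 12 libraries correlated best with their own number. Leaving out each library gave 0 to 1 carriers past 1.5-fold higher in oxamate-treated parental cells, and in resistant cells 1 to 6 that rose, 0 to 1 past 1.5-fold, and 1 to 7 that fell. It gave 1 to 2 past 1.5-fold lower in vehicle-treated resistant cells, with medians of -0.087 to -0.049 there and of -0.083 to -0.021 for the difference of responses. Depth limits the carriers under 2 CPM.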
